A study of Mus musculus with 7 samples.

Results

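The bone morphogenetic protein (BMP) genes and the inhibitor of DNA binding (ID) genes examined here were 10 mouse genes chosen by symbol: Bmp2, Bmp4, Bmpr1a, Bmpr2, Smad6, Smad7, Id1, Id2, Id3 and Id4. All 10 were matched to a single identifier each among the 55414 Ensembl identifiers of the count table, and all had at least 1 count. The RNA came from Paneth cells (PCs), granulated secretory cells of the small intestinal crypt, which had been purified on a cell sorter from C57BL/6J mice. One group of 3 libraries came from mice injected with phosphate-buffered saline (PBS), and the other group of 4 libraries came from mice injected with the cytokine tumour necrosis factor (TNF). The small intestine was taken 15 h after injection in both groups, and the libraries are stated to be biological replicates from separate animals. The dose, the sex and age of the mice, the sorting gate and the segment of the small intestine were not given in the sources used here.

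BMPs are secreted ligands that bind a complex of type I and type II serine/threonine kinase receptors. The receptors phosphorylate SMAD1, SMAD5 and SMAD9, which join SMAD4 and enter the nucleus. The ID genes are classical direct targets of these SMADs, and so are Smad6 and Smad7, whose products inhibit the pathway in a negative feedback. ID proteins have a helix-loop-helix domain but no DNA-binding region, and hold E proteins and other basic helix-loop-helix (bHLH) factors away from DNA. In the small intestine, BMP activity is low at the crypt base, where Wnt signals and BMP antagonists from the stroma prevail, and rises towards the villus.

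After TNF, the 4 ID genes and Smad6 fell, Bmp2 and the type II receptor gene Bmpr2 rose, and the type I receptor gene Bmpr1a and Smad7 did not pass the test. Bmp4 was practically not detected. Levels are in CPM (counts scaled to 1e6 per library, with library sizes adjusted by edgeR's TMM method) and are given per library or as mean ± SD over the 3 PBS or the 4 TNF libraries. Changes are log2 fold changes of TNF against PBS, given ± their standard error (SE). The test was edgeR's quasi-likelihood test over all genes, and a differentially expressed gene (DEG) had a Benjamini-Hochberg adjusted p under 0.05. Of the 10 genes, 9 passed the filter on low counts, 2 were DEGs that rose and 5 were DEGs that fell. Among all 14329 genes tested, 59.6% were DEGs, 29.5% higher and 30.1% lower, so a change as such was common in these libraries. The median log2 fold change of the 9 genes was -1.08, beside 0.0017 over all genes tested. These 9 include Id4, which passed the filter on low counts through its PBS libraries alone, so the median depends in part on that filter.

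**Figure D1:**
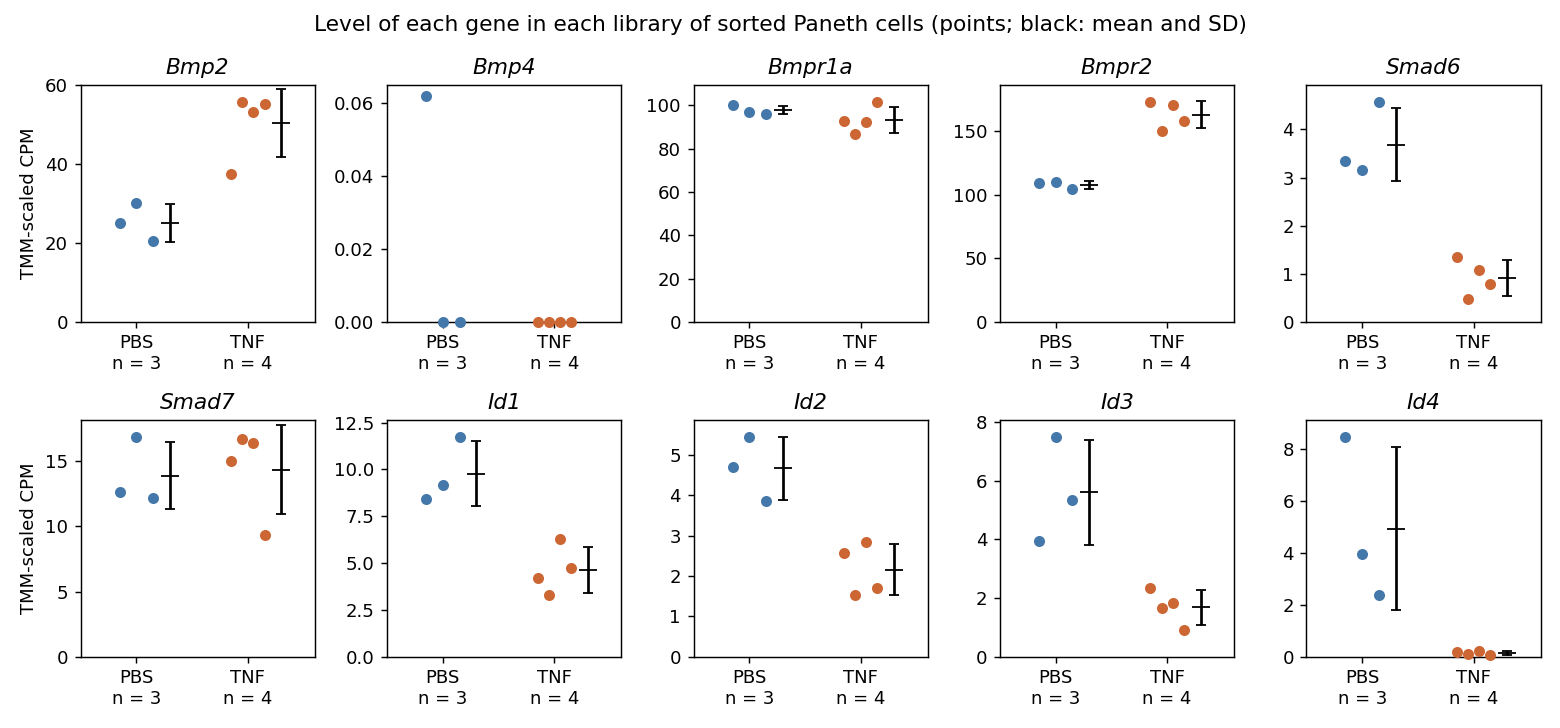
TMM-scaled CPM (y axis, from 0) of each of the 10 genes in the 3 PBS and 4 TNF libraries, with points for libraries and black bars for mean and SD, which are left out for Bmp4. The groups did not overlap for Bmp2, Bmpr2, Smad6, Id1, Id2, Id3 and Id4, and they overlapped for Bmpr1a and Smad7.

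Total counts ran from 15511455 to 19193721 per library. PC products were abundant in both groups, with Lyz1 (lysozyme) at 96515 ± 17916 CPM after PBS and 118731 ± 28082 CPM after TNF (not called). Stromal markers, a list of 8 genes that includes the fibroblast collagens, summed to 1.85 to 2.04 CPM after PBS and 0.118 to 1.51 CPM after TNF, with Col1a2, Foxl1 and Lum at 0 counts. Endothelial markers summed to 14.5 to 15.7 CPM after PBS and 12.6 to 13.9 CPM after TNF, nearly all of it Esam, which fell (log2 fold change -1.56), and Vwf, which rose (1.89), and Kdr was at 0. Leukocyte markers summed to 11.98 to 26.8 CPM after PBS and 7.01 to 13.8 CPM after TNF, mostly Ptprc, which fell (-0.95), with Cd3e and Nkg7 at 0, and the 4 globin genes of the erythroid list were at 0. Markers of other epithelial cells were present and are given beside the results they move with. In bulk samples, fewer cells of a type and less RNA per cell cannot be told apart.

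Among the ligands, Bmp2 (ENSMUSG00000027358, GRCm39 chromosome 2, 133394079 to 133404816) encodes a BMP that epithelial cells of the intestine can make themselves. Its level was 25.0, 30.03 and 20.4 CPM in PBS replicates 1 to 3, and 37.6, 55.6, 53.2 and 55.4 CPM in TNF replicates 1 to 4. All TNF libraries lay above all PBS libraries, although TNF replicate 1 stood lower than the other TNF libraries. The log2 fold change was 1.00 ± 0.16 (edgeR, BH-adjusted p = 0.000139), a 2.00-fold rise, and it was 1.12 without TNF replicate 1.

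Bmp4 (ENSMUSG00000021835, chromosome 14, 46620250 to 46636745), which encodes the main BMP ligand of the intestinal stroma, had 1 count in PBS replicate 1 and 0 counts in the other libraries. A count of 0 over the 4 TNF libraries allows a level of up to 0.0436 CPM (3 counts, counting error only), and no fold is given because both groups lie at or under this floor. At this depth a difference of Bmp4 was not detectable.

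The receptors moved unequally. Bmpr1a (ENSMUSG00000021796, chromosome 14, 34132687 to 34225379), which encodes the type I receptor for BMP2 and BMP4, had 100.1, 97.1 and 96.2 CPM after PBS and 92.8, 86.8, 92.4 and 101.3 CPM after TNF. The groups overlapped, and the log2 fold change of -0.07 ± 0.09 (edgeR, BH-adjusted p = 0.56) had a 95% interval from -0.27 to 0.14.

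Bmpr2 (ENSMUSG00000067336, chromosome 1, 59802544 to 59918173), which encodes the type II receptor that activates the type I receptor, had 109.6, 110.1 and 104.4 CPM after PBS and 172.7, 150.0, 170.8 and 158.4 CPM after TNF. No TNF library came near the PBS range. The log2 fold change was 0.59 ± 0.10 (edgeR, BH-adjusted p = 0.000137), or a 1.51-fold rise. Per kb of exon, the ratio of Bmpr2 to Bmpr1a was 0.474 ± 0.011 after PBS and 0.752 ± 0.0592 after TNF.

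The inhibitory SMAD genes differed from each other as well. Smad6 (ENSMUSG00000036867, chromosome 9, 63860341 to 63929793), whose product preferentially blocks the BMP branch, had 3.34, 3.16 and 4.56 CPM after PBS and 1.34, 0.472, 1.07 and 0.785 CPM after TNF. It was low in all libraries, from 54 to 86 counts after PBS and from 8 to 24 counts after TNF, and the groups did not overlap. Its log2 fold change was -1.99 ± 0.42 (edgeR, BH-adjusted p = 0.001), or 3.98-fold lower.

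Smad7 (ENSMUSG00000025880, chromosome 18, 75500374 to 75529006), whose product inhibits both the BMP and the TGF-beta branch, had 12.7, 16.8 and 12.2 CPM after PBS and 15.0, 16.7, 16.4 and 9.36 CPM after TNF. TNF replicate 4 was the lowest of all 7 libraries and the other TNF libraries lay within the PBS range. The log2 fold change was 0.05 ± 0.21 (edgeR, BH-adjusted p = 0.857), with a 95% interval from -0.40 to 0.49, and its sign changed with the scaling.

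**Figure D2:**
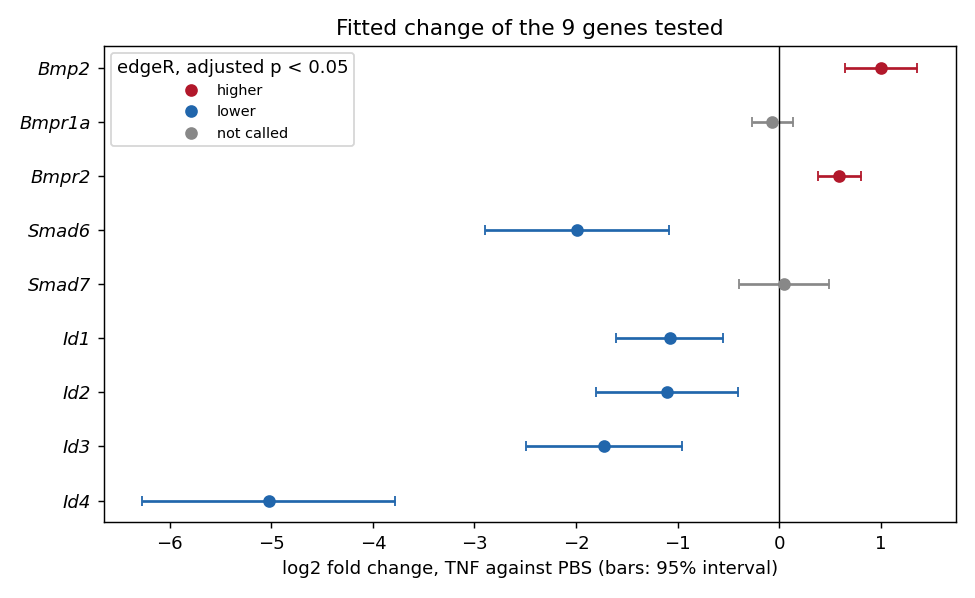
Fitted log2 fold change, TNF against PBS, of the 9 genes that passed the filter on low counts (points; bars are 95% intervals). Id4 lies at -5.03, Smad6, Id3, Id2 and Id1 lie between -1.99 and -1.08, and the intervals of Bmpr1a and Smad7 include 0.

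For all 4 ID genes, the highest TNF library lay below the lowest PBS library. With Smad6 below and Bmp2 and Bmpr2 above, 7 of the 9 genes tested had groups that did not overlap. Among all genes tested this held for 60.7%, with 29.9% above and 30.9% below after TNF. Id1 (ENSMUSG00000042745, chromosome 2, 152566218 to 152579544), the ID gene most used as a readout of BMP activity, had 8.41, 9.16 and 11.7 CPM after PBS and 4.20, 3.30, 6.26 and 4.71 CPM after TNF. Its log2 fold change was -1.08 ± 0.24 (edgeR, BH-adjusted p = 0.00168), or 2.11-fold lower.

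Id2 (ENSMUSG00000020644, chromosome 12, 25143798 to 25147282), which also acts in lymphoid development, had 4.70, 5.45 and 3.87 CPM after PBS and 2.57, 1.53, 2.84 and 1.70 CPM after TNF. The groups did not overlap, but the TNF libraries held only 26 to 53 counts. The log2 fold change was -1.10 ± 0.32 (edgeR, BH-adjusted p = 0.00918), and the call was lost without PBS replicate 2 (-0.98, BH-adjusted p = 0.0503).

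Id3 (ENSMUSG00000007872, chromosome 4, 135870808 to 135873066), a close relative of Id1, had 3.96, 7.48 and 5.36 CPM after PBS and 2.35, 1.65, 1.82 and 0.916 CPM after TNF. PBS replicate 2 was the highest and TNF replicate 4 the lowest library. The log2 fold change was -1.72 ± 0.36 (edgeR, BH-adjusted p = 0.000865), or 3.30-fold lower.

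Id4 (ENSMUSG00000021379, chromosome 13, 48414558 to 48419502), which can counteract the other ID proteins, had 8.47, 3.97 and 2.39 CPM after PBS, and its PBS libraries differed more than those of any other member tested, with a coefficient of variation of 63.8%. After TNF it was at 0.168, 0.118, 0.214 and 0.0654 CPM, with 3, 2, 4 and 1 counts. The fall was from 260 counts over the PBS libraries to 10 over the TNF libraries, with a log2 fold change of -5.03 ± 0.58 (edgeR, BH-adjusted p = 5.19e-06). Without PBS replicate 1, the highest library, the log2 fold change was -4.40. Id4 passed the filter on low counts through its PBS libraries alone.

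Compared per exon length, Id1 held the largest share of the summed ID level, with 49.8% ± 7.94 after PBS and 62.0% ± 8.55 after TNF. Id3 held 27.98% ± 6.95 and 22.7% ± 7.53, and Id2 held 12.2% ± 1.96 and 14.6% ± 1.52. The share of Id4 was 10.04% ± 7.17 after PBS and 0.715% ± 0.22 after TNF. The summed ID level was 10.1, 11.8 and 11.2 CPM per kb after PBS and 4.45, 3.25, 5.41 and 3.67 CPM per kb after TNF.

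The order of the 10 genes by level per kb of exon differed between the groups. After PBS, Bmpr1a led with 12.6 ± 0.265 CPM per kb, followed by Bmpr2 (5.98 ± 0.175), Id1 (5.50 ± 0.978) and Bmp2 (5.43 ± 1.04), whose ranges overlapped in this order. Id3 (3.13 ± 0.992) and Smad7 (2.93 ± 0.539) overlapped too, and so did Id2 (1.34 ± 0.226), Id4 (1.07 ± 0.686) and Smad6 (1.04 ± 0.215), each with its neighbour. After TNF, Bmpr1a (12.03 ± 0.77), Bmp2 (10.9 ± 1.87) and Bmpr2 (9.02 ± 0.593) overlapped, each with its neighbour, and were apart from Smad7 (3.02 ± 0.719) and Id1 (2.60 ± 0.70). Then came Id3 (0.94 ± 0.331) and Id2 (0.62 ± 0.184), which overlapped, and Smad6 (0.259 ± 0.106) and Id4 (0.0307 ± 0.0139), which did not.

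**Figure D3:**
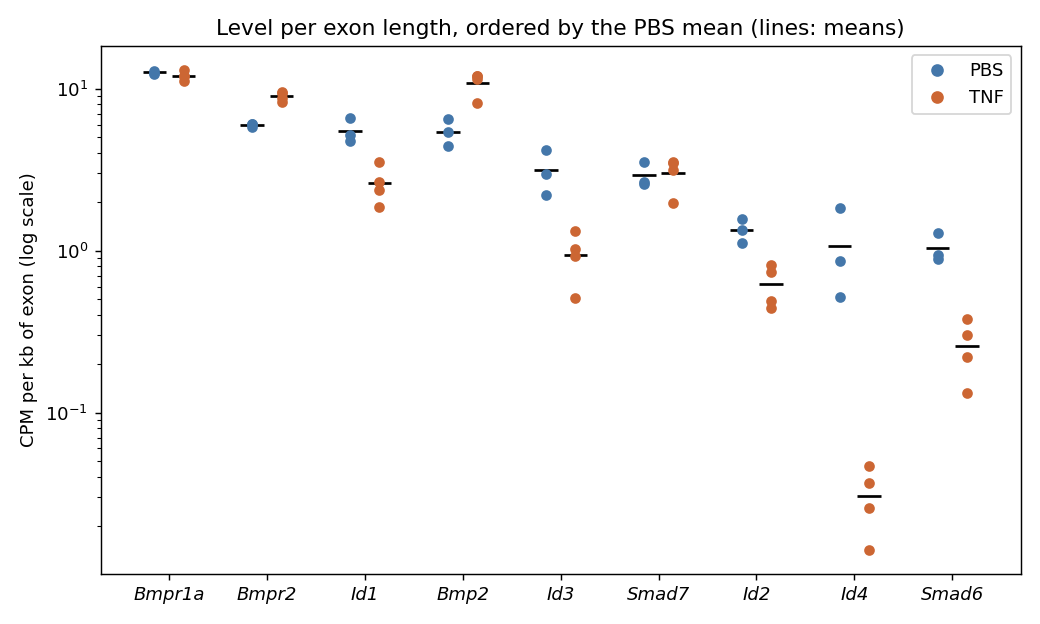
CPM per kb of exon (log scale) of the 9 genes other than Bmp4, ordered by their PBS mean, with points for the 3 PBS and 4 TNF libraries and lines for group means. Bmpr1a led both groups at 12.6 and 12.03 CPM per kb, and Id4 took the lowest place after TNF at 0.0307 CPM per kb.

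Among all genes tested, Bmpr1a had a higher level per kb than 86.5% after PBS and 83.3% after TNF, and Bmp2 than 68.4% and 81.5%. Id1 moved from above 68.7% of the genes to above 49.8%, Id3 from above 53.2% to above 29.8%, and Id4 from above 29.6% to above 1.41%.

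Promoter sequences are shown for the ID genes that fell and for Smad6, since these genes moved in the same direction. RefSeq windows of 300 bases (250 before and 50 after the start, build GRCm38.p6) were found for 7 of the 10 genes, without Bmp2, Id1 and Smad7. The windows of Id2 (chr12:25096093-25096342, minus strand), Id3 (chr4:136143572-136143821, plus strand) and Id4 (chr13:48260866-48261115, plus strand) are given as the 250 bases before the start, 5′ to 3′. Capitals mark the GC-rich SMAD element GGCGCC and the single SMAD box CAGAC on either strand.
Id2: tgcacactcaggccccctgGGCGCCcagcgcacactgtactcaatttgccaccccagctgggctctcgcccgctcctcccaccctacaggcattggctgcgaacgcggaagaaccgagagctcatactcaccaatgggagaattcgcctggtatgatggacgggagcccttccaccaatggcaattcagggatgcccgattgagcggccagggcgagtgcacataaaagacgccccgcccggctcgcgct
Id3: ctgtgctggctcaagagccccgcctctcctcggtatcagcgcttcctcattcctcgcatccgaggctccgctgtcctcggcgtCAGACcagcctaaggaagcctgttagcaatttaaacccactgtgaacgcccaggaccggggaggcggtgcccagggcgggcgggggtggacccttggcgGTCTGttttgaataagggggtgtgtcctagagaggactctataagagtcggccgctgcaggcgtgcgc
Id4: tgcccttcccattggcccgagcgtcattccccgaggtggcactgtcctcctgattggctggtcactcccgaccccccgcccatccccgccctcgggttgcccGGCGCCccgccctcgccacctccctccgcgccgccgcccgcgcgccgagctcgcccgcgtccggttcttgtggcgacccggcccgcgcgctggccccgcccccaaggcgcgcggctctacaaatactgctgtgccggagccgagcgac

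The element GGCGCC, which reads the same on both strands, lay at positions -231 to -226 of Id2 and -148 to -143 of Id4, counted back from the start. It was also found in the windows of Bmpr1a (-198 to -193), which did not pass the test, and of Bmpr2 (-105 to -100), which rose, and 11.9% of all 32851 windows hold it. The 250 bases before the start were 62.8% G and C in Id2, 75.6% in Id4, 78.8% in Bmpr1a and 64.0% in Bmpr2. The median over all windows was 52.4%, so the share of 11.9% comes from windows with fewer of these letters. Id3 had CAGAC at -167 to -163 and its reverse complement at -68 to -64, a motif present in 49.6% of all windows. The palindromic SMAD box GTCTAGAC, which 0.213% of all windows hold, was found only in Smad6 among the 7 genes, across the start from position -4 to 4. It is printed in capitals with its flanks (chr9:64022045-64022074, minus strand).
Smad6: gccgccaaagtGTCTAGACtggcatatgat

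None of the 7 windows held the cAMP response element TGACGTCA or the NF-kB motif, which were found in 1.79% and 8.46% of all windows. The palindromic box does not contain CAGAC, and the other motifs searched do not overlap in these windows. A match is a description of the letters and not a site of binding, and the windows cover only the start of each gene.

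The partners of ID proteins, the E proteins, fell as well. Tcf12 had 380, 324 and 339 CPM after PBS and 101.3, 81.3, 85.4 and 73.6 CPM after TNF, a log2 fold change of -2.03 ± 0.12 (edgeR, BH-adjusted p = 1.07e-08). Tcf3 fell by 0.68 ± 0.10 in log2 units (edgeR, BH-adjusted p = 6.38e-05) and Tcf4 fell by 0.38 ± 0.11 (adjusted p = 0.00698), of which the call for Tcf4 was lost without PBS replicate 1. The summed level of the 3 genes was 28.4 ± 1.14 CPM per kb after PBS and 10.7 ± 0.767 CPM per kb after TNF, beside 11.04 ± 0.831 and 4.19 ± 0.951 CPM per kb for the 4 ID genes.

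Of 6 bHLH factors of crypt cells, which pair with E proteins or repress such factors, 5 were DEGs that fell and 1 was not called. Among those that fell, Ascl2 and Neurog3 passed the filter on low counts through their PBS libraries alone. Bhlha15 (Mist1), a factor of secretory cells, fell from 320 ± 17.8 CPM to 11.6 ± 1.71 CPM, a log2 fold change of -4.79 ± 0.13. Atoh1, which specifies secretory cells, had a log2 fold change of -1.77 ± 0.18. The Notch target Hes1 had -0.46 ± 0.14 (edgeR, BH-adjusted p = 0.0115), and this call was lost without PBS replicate 2.

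**Figure D4:**
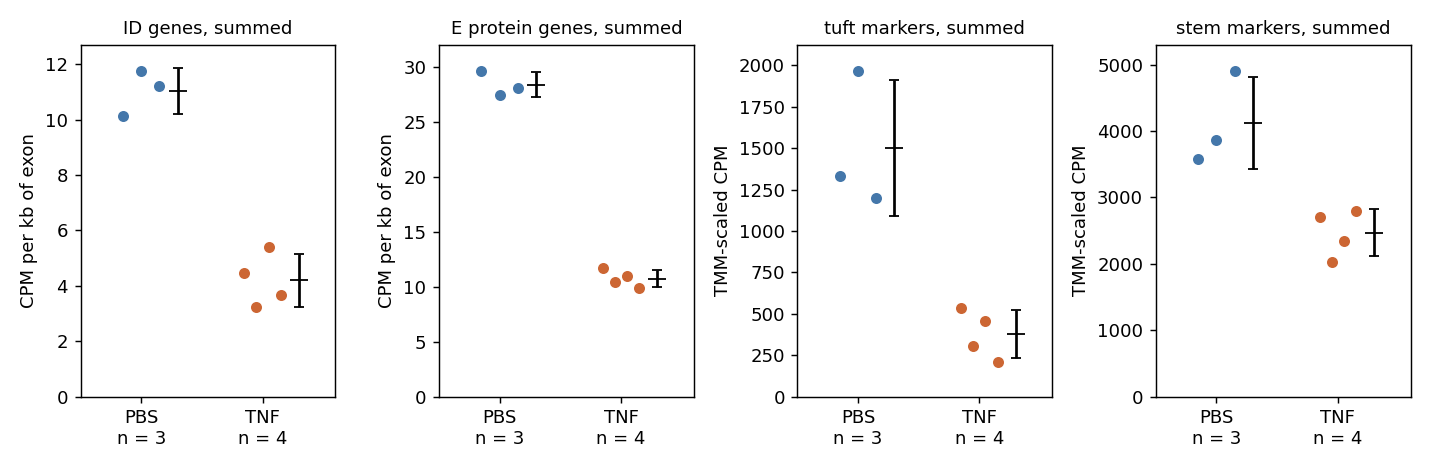
Summed level per library of the 4 ID genes and of the 3 E protein genes (CPM per kb of exon) and of the tuft and stem cell marker lists (TMM-scaled CPM), all from 0, with black bars for mean and SD. Each of the 4 sums was lower in all 4 TNF libraries than in any of the 3 PBS libraries.

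Markers of other epithelial cells moved unequally. The 7 tuft cell markers, led by Dclk1 and Trpm5, were all DEGs that fell, and summed to 1198 to 1968 CPM after PBS and 209 to 534 CPM after TNF. Of the 7 stem cell markers, 6 fell and Slc12a2 was not called. The sum of all 7, mostly Olfm4 and Slc12a2, was 3585 to 4908 CPM after PBS and 2029 to 2788 CPM after TNF. Il25 of the tuft list and Ascl2 of the stem list passed the filter on low counts through their PBS libraries alone. Among enterocyte markers, Fabp2, which encodes a fatty acid-binding protein, fell from 50.001 ± 16.9 to 6.11 ± 0.542 CPM (edgeR, BH-adjusted p = 8.79e-08), while the glucose transporter gene Slc5a1 rose from 38.8 ± 6.35 to 53.5 ± 5.26 CPM (BH-adjusted p = 0.00714). These examples were chosen after their values were seen.

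The 6 enteroendocrine markers, led by Sct and Chgb, of which 2 fell, summed to 91.5, 74.9 and 28.4 CPM in PBS replicates 1 to 3 and to 21.5 to 31.8 CPM after TNF. These sums overlapped between the groups, and 4 of the 6 markers were not called. Of 6 goblet cell markers, 4 fell and 1 rose, and the sums overlapped. Among those that fell, Zg16 passed the filter on low counts through its PBS libraries alone. Fcgbp, which encodes a mucus protein, fell from 2892 ± 1375 CPM to 58.9 ± 18.8 CPM (edgeR, BH-adjusted p = 7.68e-07), and the mucin gene Muc2 at 5366.5 ± 1795 CPM after PBS and 5870.1 ± 318 CPM after TNF was not called. Of the 7 PC markers, 2 rose and 0 fell. The part of these cell types, and of the stromal, endothelial and leukocyte markers, in the changes of the ID genes and Smad6 was not tested.

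The remaining genes of the pathway were taken from lists of 76 genes, chosen for their role. Of these, 17 had 0 counts in every library and 51 were tested, of which 16 were DEGs that rose and 23 were DEGs that fell, with a median log2 fold change of -0.38. The counts and medians of the lists include genes that passed the filter on low counts through their higher group alone.

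**Figure D5:**
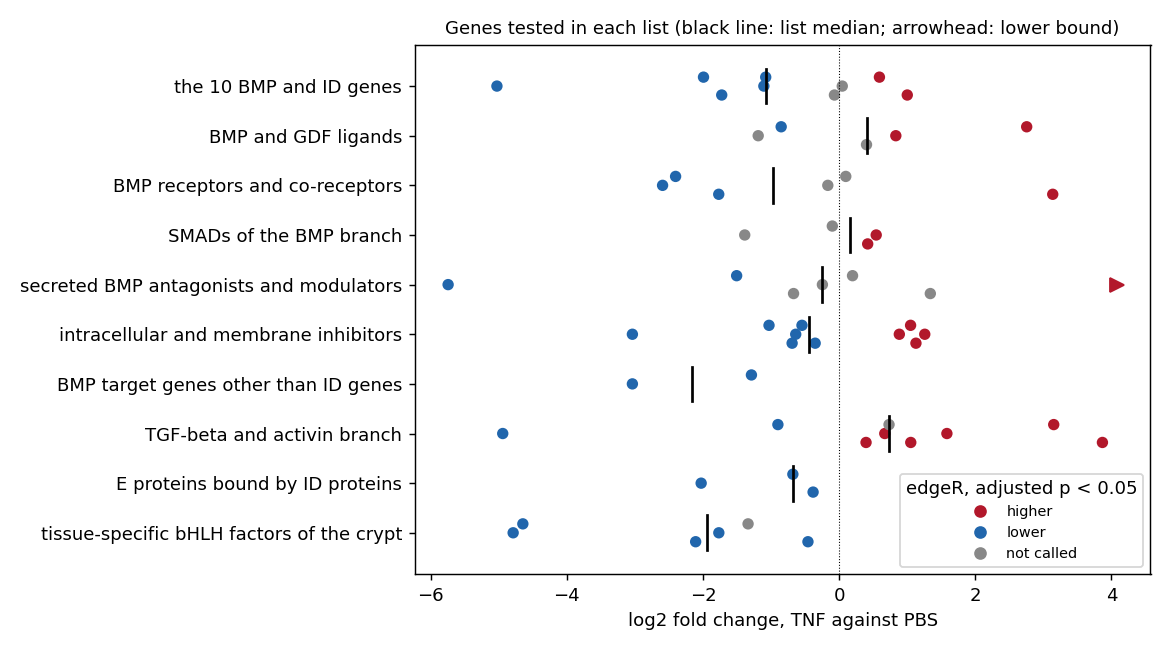
Log2 fold change, TNF against PBS, of each gene tested, by list and coloured by edgeR call, with a black line at the list median and an arrowhead for Fst, drawn at its lower bound because it had 0 counts after PBS. The median was -1.08 for the BMP and ID genes described above, -2.16 for the other BMP targets and 0.73 for the TGF-beta and activin branch. Some genes drawn, such as Id4 and Inhbb, passed the filter on low counts through their higher group alone.

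Of 12 other BMP and GDF ligand genes, 5 were tested, 2 rose and 1 fell, with a median of 0.40. Among the rises, Bmp8b had 13, 3 and 3 counts after PBS and 48, 32, 66 and 27 counts after TNF. It passed the filter on low counts through its TNF libraries alone, so the median depends in part on that filter. Bmp7 was the most abundant in CPM and fell from 79.8 ± 10.5 CPM to 44.3 ± 7.17 CPM, a log2 fold change of -0.85 ± 0.14 (edgeR, BH-adjusted p = 9.99e-05). Bmp3, whose product antagonizes other BMPs, rose from 22.1 ± 0.533 to 39.3 ± 10.8 CPM (0.83 ± 0.18, adjusted p = 0.00123). Bmp8a had a log2 fold change of 0.40 ± 0.40 (adjusted p = 0.399).

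Of 10 further receptors and co-receptors, 6 were tested, 1 rose and 3 fell, with a median of -0.97. Rgmb, which encodes a membrane-anchored BMP co-receptor of the repulsive guidance molecule family, had 351, 307 and 355 CPM after PBS and 64.0, 64.1, 64.8 and 62.6 CPM after TNF. The TNF libraries were almost equal, and the log2 fold change was -2.40 ± 0.10 (edgeR, BH-adjusted p = 3.85e-10). The type II receptor gene Acvr2a (-0.17 ± 0.11, adjusted p = 0.217) and the type I receptor gene Acvr1 (0.10 ± 0.13, adjusted p = 0.547) were not called.

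Of the 4 signal-transducing SMAD genes of the BMP branch, 2 rose, 0 fell and 2 were not called. Smad4, the common partner, had 81.0 ± 1.90 CPM after PBS and 118.3 ± 9.70 CPM after TNF, and rose by 0.55 ± 0.10 (edgeR, BH-adjusted p = 0.000314). Smad1 rose by 0.42 ± 0.10 (adjusted p = 0.00217), a call that was lost when libraries were scaled by total counts only. Smad5 had a log2 fold change of -0.10 ± 0.12 (adjusted p = 0.501).

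Nog (noggin) and Grem1 (gremlin 1), antagonists known from the stroma, had 0 counts in all libraries, which allows up to 0.0549 CPM over the PBS and 0.0436 CPM over the TNF group, and 8 of the 16 secreted antagonists and modulators in total were at 0. Of the 7 tested, 1 rose and 2 fell, with a median of -0.24. Twsg1, which encodes a secreted BMP-binding protein, was the most abundant and was not called (47.2 ± 2.81 CPM after PBS, 54.1 ± 3.64 CPM after TNF, adjusted p = 0.115), nor was Fstl3 (-0.67 ± 0.40, adjusted p = 0.169). Fstl1, which encodes a follistatin-like glycoprotein, had 81, 111 and 173 counts after PBS and 3, 4, 0 and 1 counts after TNF, and like Id4 passed the filter through its PBS libraries alone (log2 fold change -5.74 ± 0.56, adjusted p = 1.04e-06).

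Of 10 intracellular and membrane inhibitors, 4 rose, 6 fell and 0 were not called. Bambi, a pseudoreceptor without a kinase domain that blocks BMP and TGF-beta receptors and is itself a BMP target, had 222, 207 and 197 CPM after PBS and 21.7, 24.9, 31.4 and 23.7 CPM after TNF. It fell by 3.04 ± 0.13 in log2 units (edgeR, BH-adjusted p = 4.38e-10). Fkbp1a, whose product holds type I receptors inactive, rose by 1.13 ± 0.10, Ppm1a, a phosphatase reported to act on SMADs, by 0.89 ± 0.11, and Skil (SnoN), a SMAD corepressor, by 1.26 ± 0.11 (adjusted p at most 1.1e-05).

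Of the 5 BMP targets other than ID genes, Bambi and Atoh8 were tested and both fell. Atoh8, a bHLH factor gene, had 7.48 ± 2.24 CPM after PBS and 3.06 ± 1.18 CPM after TNF, with a log2 fold change of -1.29 ± 0.33 (edgeR, BH-adjusted p = 0.00402). Hey1 had 3 counts in all after PBS and 10 after TNF and was not tested.

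The TGF-beta and activin branch, the nearest relative of the BMP branch, was given for comparison. Of 11 genes, 9 were tested, 6 rose and 2 fell, with a median of 0.73. Among the rises, Inhbb had 6, 1 and 1 counts after PBS and 29, 19, 25 and 23 counts after TNF. It passed the filter on low counts through its TNF libraries alone. Tgfbr2, which encodes the type II TGF-beta receptor, had 23.4, 24.3 and 21.1 CPM after PBS and 286, 336, 357 and 360 CPM after TNF, a log2 fold change of 3.87 ± 0.13 (edgeR, BH-adjusted p = 1.03e-10). The type I receptor gene Tgfbr1 rose by 1.05 ± 0.11 (adjusted p = 1.52e-06). Smad3 rose by 0.40 ± 0.12 (adjusted p = 0.0113), a call that was lost without PBS replicate 2 and with scaling by total counts. Whether the lists differed from each other was not tested.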

How the data were processed

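The authors deposited raw counts, whole numbers of reads per gene in 7 columns, matched to samples by name. The submitters' processing notes name FastQC, Trimmomatic 0.39, STAR 2.7.10a and DESeq2, and the builds mm10 and mm39, without roles. The counting program, annotation and strand use were not given in the sources used here. Symbols, GRCm39 coordinates and exon lengths came from GENCODE M39 (98.8% of identifiers found), so they describe annotated genes and not the counted intervals. In it, 7 of the 10 genes overlap other annotated genes, mostly antisense RNAs, and without known strand use such reads cannot be told apart.

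Counts were tested in R 4.3.3 with edgeR 4.0.16 (filterByExpr, TMM, robust quasi-likelihood test, two-sided, no covariates, 14329 genes). SEs were taken from the fold change and F statistic, and intervals from the t distribution with the fitted degrees of freedom. Scripts were tested on simulated counts. A gene with 0 counts in a group is set against a floor of 3 counts over that group, which covers counting error only. Named genes were the 10 genes, the 3 most abundant of each other list with a few fixed by symbol, and abundant markers of most lists. Further genes were named outside this rule. Among them were markers at 0 counts, Fabp2, and genes that passed the filter on low counts through their higher group alone. The genes and lists were chosen with earlier results of these data known. Alternatives were other scalings, filters and tests (DESeq2 1.42.0), a replicate block, and leaving out each library. Separate mice are taken from the series description. The counts and the sum of the enterocyte marker list are not reported here.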

Additional observations from a re-analysis of the deposited data

Results flagged for a closer look

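Within the TNF group, each of the 9 genes with counts after TNF and the summed ID level were looked at for a library apart from the other 3, which chance gives in about 1 of 20 groups. One value was found. Bmp2 in TNF replicate 1 was at 37.6 CPM, below the 53.2 to 55.6 CPM of the other TNF libraries and above the highest PBS library at 30.03 CPM. The gap was 0.864 of the range of the group (Dixon's ratio). The PBS group is too small for this comparison.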

How the results depend on the processing

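The counts of 2 rises and 5 falls among the 10 genes were 2 rises and 4 falls without PBS replicate 2 and with the replicate block, in which Id2 lost its call (log2 fold change -0.98 and -1.03, edgeR adjusted p = 0.0503 and 0.0692), and were the same in the other 13 of 15 alternatives. Adjusted p over these alternatives ran from 0.0041 to 0.0692 for Id2. Id1, Id3, Id4, Smad6, Bmp2 and Bmpr2 kept their direction and call in all 15. Smad7, not called in any, changed sign with scaling by total counts (-0.10), where the median of all tested genes moved from 0.0017 to -0.16, and when each library was left out its log2 fold change ran from -0.046 to 0.21, with values below 0 (-0.046 to -0.012) for each of PBS replicates 1 and 3 and TNF replicates 2 and 3. The block shares only a number between groups, since same-numbered libraries did not deviate together (correlations -0.299, -0.031 and -0.174), and TNF replicate 4 is alone in it. It also ended the calls of Tcf4 and Smurf2 among the other pathway genes. Of the 39 DEGs among the other pathway genes, 33 were called the same way in every alternative that tested them, which was all 15 except for Fst with 11. With the longest transcript as gene length, 6 of the 10 genes kept their place in the TNF order, since Bmpr2 and Bmp2, and Id1 and Smad7, whose ranges overlapped, changed places, and all 10 kept it in the PBS order. Depth limits Bmp4, and Id4 after TNF.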

Other observations

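Some genes of the pathway lists with large changes fell outside the rule for naming and were chosen after their values were seen. Levels are mean ± SD over the 3 PBS or 4 TNF libraries. Acvr1c, which encodes the activin and nodal type I receptor ALK7, fell from 163 ± 15.6 CPM to 5.30 ± 0.394 CPM, a log2 fold change of -4.94 ± 0.12 (edgeR, BH-adjusted p = 6.17e-12). Ascl2, a bHLH factor of crypt base stem cells, fell from 13.9 ± 1.85 CPM to 0.544 ± 0.286 CPM (-4.65 ± 0.33, adjusted p = 4.79e-08), and passed the filter on low counts through its PBS libraries alone. Acvr2b, a type II receptor gene, fell from 11.4 ± 1.46 CPM to 3.34 ± 0.75 CPM (-1.77 ± 0.23, adjusted p = 1.57e-05), while Acvrl1, which encodes the type I receptor ALK1, had 7, 2 and 3 counts after PBS and 37, 30, 41 and 32 counts after TNF (a rise by the test, adjusted p = 0.00039). Acvrl1 and Fst passed the filter on low counts through their TNF libraries alone. Fst, which encodes the activin antagonist follistatin, had 0 counts in all after PBS and 64 after TNF, of which 0 were in TNF replicate 2, and was at least 17.0-fold higher against a floor of 3 counts over the PBS group (edgeR adjusted p = 0.00546).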
